A study of Mus musculus with 24 samples.

Results

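Cadherins are the adhesion receptors through which cells hold on to one another and, in the case of the large family members, align with one another. The 56 genes described here were chosen by gene name as the members of the cadherin superfamily that lie outside the clustered protocadherin genes: 56 of the 55341 gene names in the count table. They comprise 5 classical type I cadherins, 13 classical type II cadherins, 5 other genes named Cdh, 3 desmocollins, 6 desmogleins, 12 protocadherins outside the clusters, 4 Fat genes, 2 Dachsous genes, 3 Celsr genes and 3 calsyntenins. Gene names were matched as the table gives them, and positions are on mm10 with GENCODE vM21.

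Classical cadherins bind calcium and pair with like cadherins on the neighbouring cell, while their tails hold catenins and, through them, actin. Desmogleins and desmocollins do the same in desmosomes and connect to intermediate filaments. Fat and Dachsous bind each other across the cell border in the Hippo and planar polarity pathways, Celsr proteins serve planar polarity, calsyntenins carry cargo on kinesin, and E-cadherin and P-cadherin (Cdh1 and Cdh3) are the usual classical cadherins of mammary epithelium, whereas N-cadherin (Cdh2) belongs to mesenchymal cells.

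The cells were the mouse mammary adenocarcinoma line 3134. All groups carried an IPTG-inducible hairpin that targets NIPBL mRNA, and a piggyBac construct that was an empty vector, wild-type NIPBL or a mutant named C1, C2 or C1-C2, whose changes the labels do not describe. NIPBL loads the cohesin ring that extrudes chromatin loops. Empty-vector cells were grown without IPTG or with 1 mM IPTG, and the cells with the other 4 constructs with IPTG only, for 3 days in charcoal-stripped serum, and each of these 6 states was then given ethanol or 100 nM dexamethasone, a ligand of the glucocorticoid receptor, for 2 hours. This makes 12 groups of 2 libraries of total RNA depleted of ribosomal RNA. Each construct is represented by 1 cell line, so construct and line cannot be told apart. No group had IPTG without the hairpin, so NIPBL loss, IPTG itself and hairpin expression cannot be told apart. The series text calls the samples biological replicates without saying whether they were cultured on separate days, and p-values here reflect only how much those samples varied.

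Levels are given in CPM, a gene's counts per M (mega) counts of its library, with library totals scaled by TMM factors. Depth was 32.5 to 42.7 M counts in ethanol and 45.0 to 72.9 M counts in dexamethasone, so depth and treatment moved together. Nipbl lay at 151 to 186 CPM without IPTG and at 48.0 to 73.3 CPM with it, and the glucocorticoid target Fkbp5 lay at 68.5 to 87.7 CPM in ethanol and at 370 to 708 CPM in dexamethasone. Replicate 2 of C1-C2 in ethanol, whose treatment label names dexamethasone while its title names ethanol, had 81.2 CPM of Fkbp5. The dexamethasone replicate 1 of the wild-type construct lay away from replicate 2 on the second and the third principal component. Of the marker lists, 7 of 7 mesenchymal genes had a mean of 1 CPM or more over the 24 libraries, with a summed level of 7500 to 9748 CPM and with Col1a1 the lowest at 0.400 to 2.05 CPM. Of the 9 epithelial genes 1 did, the basal keratin gene Krt14 at 13.4 to 21.8 CPM, which made up most of the list's sum of 14.6 to 23.4 CPM, and Epcam and Cldn7 were at 0 in all libraries. Endothelial, blood and neural markers summed to at most 0.525, 11.4 and 0.815 CPM. Apart from Krt14, the epithelial markers were thus absent or low, and of the milk protein genes Csn2 and Wap were at 0 and Csn3 at 0.422 to 3.28 CPM.

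Most of the superfamily had few reads or none in these cells. Of the 56 members, 18 had no count in any of the 24 libraries, and another 17 had 1 to 71 counts over all libraries and did not pass the filter on low counts, which left 21 for the tests. The 35 members not tested include all 9 desmosomal cadherins, of which Dsc2 had 8 counts, Dsc3 6, Dsc1 4 and Dsg2 1, and the other 5 desmogleins 0. They also include Cdh1, the E-cadherin gene, with 32 counts over the 24 libraries and at most 4 in a library. A count of 0 in a library allows up to 3 counts, a limit that covers counting error only.

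Per kilobase of exon, 3 members stood above the rest. Clstn1, a calsyntenin, led with a mean of 49.4 CPM per kb over the 24 libraries, followed by the giant cadherin Fat1 with 28.5 and N-cadherin Cdh2 with 19.9. The next were Pcdh19 with 5.86, the type II cadherin Cdh24 with 2.93, Pcdh7 with 2.34, Pcdh17 with 2.03 and T-cadherin Cdh13, which is held by a lipid anchor and has no cytoplasmic tail, with 1.33. In single libraries Clstn1 lay above all other members, Fat1 (20.7 to 33.9 CPM per kb) and Cdh2 (18.3 to 21.6) overlapped each other and no other member, and Pcdh19 (4.75 to 7.06) overlapped none. From Cdh24 downwards the ranges of neighbours in the order overlapped. The classical epithelial pair was unequal: P-cadherin Cdh3 reached 1.15 CPM per kb and Cdh1, whose gene starts 46.1 kb from the end of Cdh3 on chromosome 8, reached 0.00616. VE-cadherin Cdh5 (0.0203 CPM per kb) and the 3 Celsr genes (0.0115 to 0.0910) were the least abundant of the tested members. Genes on the other strand overlap 5 tested members (Pcdh10, Dchs2, Pcdh7, Fat1 and Pcdh19) and reached at most 0.369 CPM in a library.

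**Figure D1:**
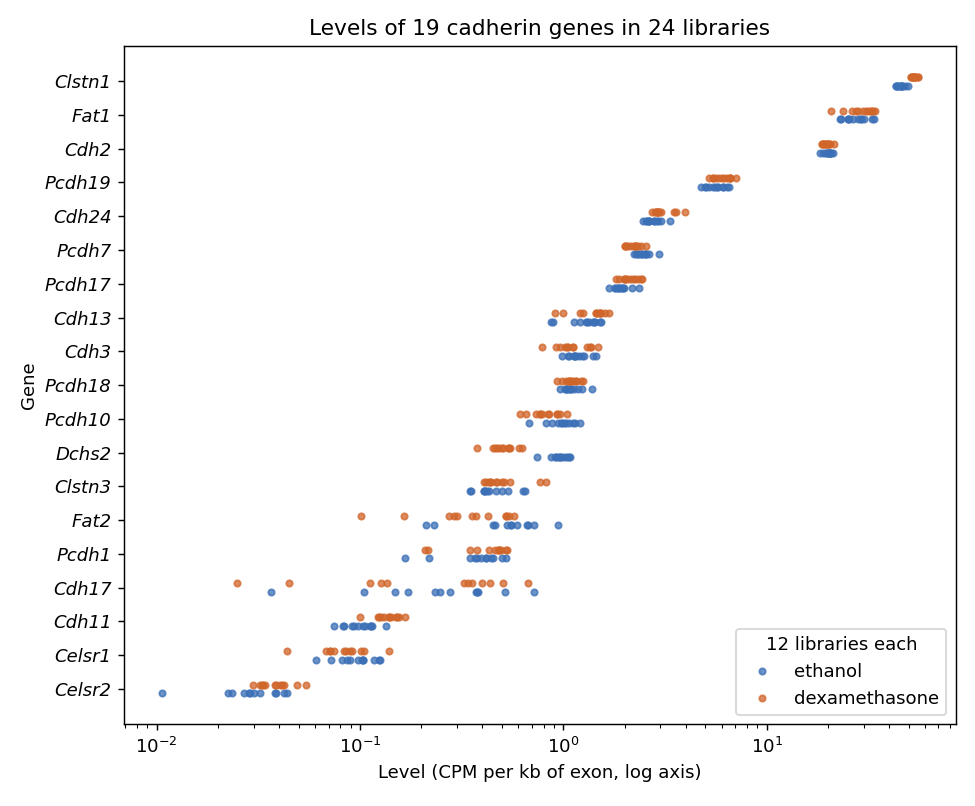
Levels of 19 tested members in each of the 24 libraries, in CPM per kb of exon on a log axis, 12 ethanol libraries in blue and 12 dexamethasone libraries in orange; Cdh5 and Celsr3, which have libraries at or near 0 counts, are left out. Clstn1, Fat1 and Cdh2 lie furthest to the right, and Cdh17 and Fat2 are spread most widely.

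Promoter windows of 250 bases before the RefSeq start (GRCm38.p6) were held for 32 of the 56 members, and 3 windows are printed. They are those of Dchs2 and Pcdh10, which both fell with dexamethasone, and of Clstn3, which was higher in the C1 cells. The searched motifs were the glucocorticoid receptor half-site AGAACA, the E-box CACCTG, which is bound by repressors of cadherin genes such as Snai2 and Zeb1, and a core of the CTCF motif, on both strands. Capitals mark matches, which were present for the half-site in the Pcdh10 window, as its reverse complement TGTTCT, and for the E-box in the Clstn3 window, and absent from the Dchs2 window. The CTCF core matched in none of the 3. The windows of Fat2, Pcdh7, Pcdh17, Clstn1 and Cdh24, which were also called with dexamethasone, are not printed and hold no match to any of the motifs. Clstn3 has a second window in the table, chr6:124462745-124462994, with no match to any of the motifs, and the printed one is that at the start of the annotated gene. The Dchs2 window ends at 83127526, upstream of the annotated gene start at 83127948, and does not reach that start. The Fat2 window, chr11:55312258-55312507, lies inside the annotated gene.
Dchs2, chr3:83127277-83127526, plus strand: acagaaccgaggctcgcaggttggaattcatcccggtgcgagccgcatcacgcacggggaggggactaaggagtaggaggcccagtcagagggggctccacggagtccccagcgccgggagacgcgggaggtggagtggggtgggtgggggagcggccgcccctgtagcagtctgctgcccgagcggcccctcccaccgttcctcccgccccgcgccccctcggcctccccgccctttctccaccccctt
Pcdh10, chr3:45378148-45378397, plus strand: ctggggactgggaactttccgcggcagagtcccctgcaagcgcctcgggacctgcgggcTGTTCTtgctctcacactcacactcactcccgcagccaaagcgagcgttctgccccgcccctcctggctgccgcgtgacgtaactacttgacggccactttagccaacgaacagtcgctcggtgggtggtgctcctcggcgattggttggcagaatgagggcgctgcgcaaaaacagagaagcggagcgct
Clstn3, chr6:124464785-124465034, minus strand: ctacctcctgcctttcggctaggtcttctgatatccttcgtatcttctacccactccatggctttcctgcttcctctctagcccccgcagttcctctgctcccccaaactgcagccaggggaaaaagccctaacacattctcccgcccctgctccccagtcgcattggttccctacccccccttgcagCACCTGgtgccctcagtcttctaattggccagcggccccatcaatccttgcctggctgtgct
The half-site was present in 16.1% of all 32851 windows, the E-box in 17.2% and the CTCF core in 7.17%, so a match or its absence is only a description of these letters. The Dchs2 window is 72.0% G and C with 22 CpG, the Pcdh10 window 63.2% with 22 and the Clstn3 window 58.4% with 6, against medians of 52.4% and 6 over all windows.

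The first comparison asked which members differed when the hairpin was switched on, in empty-vector cells. Of the 21 tested members, 5 passed the test in ethanol against 13.4% of all genes tested (7.16% higher, 6.24% lower), and 7 in dexamethasone against 16.9% (8.36% higher, 8.49% lower). Cdh17, Cdh13, Fat2 and Pcdh1 were higher with IPTG in both treatments and Pcdh7 was lower in both, and Pcdh17 (higher) and Cdh24 (lower) passed in dexamethasone and not in ethanol. The edgeR test of the difference between the treatments passed for 0 members (0 at an unadjusted p under 0.05, 0 with DESeq2), against 0.171% of all genes. The median log2 change over the 21 members was 0.15 in ethanol and 0.21 in dexamethasone, against -0.01 and 0.00 over all genes tested. The tests are those of edgeR's quasi-likelihood method, with Benjamini-Hochberg adjustment over 16934 genes, and the errors are standard errors (SE). In RNA from bulk cells, fewer cells with a transcript and less transcript per cell cannot be told apart.

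Cdh17, liver-intestine cadherin, which has 7 extracellular repeats and a short tail, had the largest change of those that passed. Its gene lies at chr4:11758147-11817895. Without IPTG it was at 0.163 and 0.467 CPM in the 2 ethanol libraries and at 0.111 and 0.199 CPM in the 2 dexamethasone libraries, which are 5 to 16 counts a library. With IPTG the empty-vector libraries were at 1.24 and 1.05 CPM in ethanol and at 1.60 and 1.45 CPM in dexamethasone. No library with IPTG and empty vector came down to any library without. The log2 change was 1.92 ± 0.55 in ethanol (3.79-fold, edgeR adjusted p = 0.0238) and 3.24 ± 0.54 in dexamethasone (9.43-fold, adjusted p = 0.000307), and the edgeR test of the difference between those changes, 1.32 ± 0.84, had an adjusted p of 1. The ethanol change was 1.29 without no-IPTG replicate 1 and 2.79 without no-IPTG replicate 2. The call was lost without the first of these (edgeR adjusted p = 0.286), empty-vector replicate 1 (0.133) or empty-vector replicate 2 (0.0741), while the dexamethasone call passed in all 14 alternatives.

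Cdh13, T-cadherin, at chr8:118283733-119324921, rose by a like amount in both treatments. It was at 9.99 and 9.72 CPM without IPTG in ethanol and at 16.0 and 17.1 CPM with IPTG, and at 10.2 and 11.2 CPM against 18.9 and 17.0 CPM in dexamethasone. The 4 libraries of each state did not overlap. The log2 change was 0.75 ± 0.08 (1.68-fold, edgeR adjusted p = 9.04e-07) in ethanol and 0.74 ± 0.08 (1.67-fold, adjusted p = 2.53e-07) in dexamethasone, and both calls passed in all 14 alternatives.

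Pcdh1 is a protocadherin of epithelia outside the clusters, at chr18:38185914-38212053, 344.0 kb from the end of the gamma protocadherin genes. It rose from 1.91 and 1.46 CPM to 3.95 and 3.90 CPM in ethanol, a log2 change of 1.2 ± 0.15 (2.31-fold, edgeR adjusted p = 5.5e-06). In dexamethasone it rose from 1.89 and 1.83 CPM to 4.26 and 4.07 CPM, a log2 change of 1.16 ± 0.14 (2.24-fold, edgeR adjusted p = 2.19e-06). The lowest library with IPTG was above the highest without, and both calls passed in all 14 alternatives. Pcdh12, which lies in the same stretch of chromosome 18, had 71 counts over all libraries and was not tested.

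Fat2, a giant cadherin that drives collective movement of epithelial cells, at chr11:55250609-55336564, was at 3.08 and 3.36 CPM without IPTG in ethanol and at 6.58 and 8.01 CPM with IPTG. In dexamethasone it was at 1.47 and 2.39 CPM without and at 4 and 4.23 CPM with IPTG. The rise was 1.18 ± 0.26 on the log2 scale in ethanol (2.26-fold, edgeR adjusted p = 0.00566) and 1.07 ± 0.28 in dexamethasone (2.10-fold, adjusted p = 0.0128). The ethanol call was lost without no-IPTG replicate 1 (edgeR adjusted p = 0.0807) or empty-vector replicate 2 (0.0576), and the dexamethasone call without no-IPTG replicate 1 (0.121) or empty-vector replicate 2 (0.0861).

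The members that were lower changed little. Pcdh7, a protocadherin with a long cytoplasmic tail that binds phosphatases, was at 27.1 and 31.4 CPM without IPTG in ethanol and at 24.3 and 25.6 CPM with it, and at 27.0 and 25.4 CPM against 21.5 and 22.7 CPM in dexamethasone. The log2 changes were -0.23 ± 0.07 and -0.24 ± 0.07 (edgeR adjusted p = 0.0450 in ethanol and 0.0219 in dexamethasone). The ethanol call passed in 5 of its 14 alternatives and was lost, among others, without no-IPTG replicate 2 (edgeR adjusted p = 0.437), empty-vector replicate 1 (0.255), empty-vector replicate 2 (0.110) or C1-C2 ethanol replicate 2 (0.0517). The dexamethasone call was lost without no-IPTG replicate 1 (0.159), empty-vector replicate 1 (0.152) or empty-vector replicate 2 (0.0595).

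Cdh24, a type II cadherin that binds catenins, was at 13.8 and 12.5 CPM without IPTG and at 10.2 and 10.3 CPM with it in dexamethasone, and fell by 0.36 (SE 0.09) on the log2 scale (edgeR adjusted p = 0.00701; 0.0934 without no-IPTG replicate 1). In ethanol it was at 11.7 and 10.6 CPM against 9.22 and 9.75 CPM, with a log2 change of -0.23 ± 0.10 (edgeR adjusted p = 0.114). With the trend of counts with length and GC content removed, Cdh24 passed in ethanol too (edgeR adjusted p = 0.0194). Pcdh17 was at 25.8 and 24.3 CPM without IPTG and at 31.8 and 29.1 CPM with it in dexamethasone, a log2 change of 0.28 ± 0.09 (edgeR adjusted p = 0.0295). That call was lost without no-IPTG replicate 1 (0.0630), no-IPTG replicate 2 (0.191) or empty-vector replicate 1 (0.204).

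The 3 most abundant members did not pass in either treatment. Cdh2 was at 158 and 159 CPM without IPTG and at 162 and 152 CPM with it in ethanol, a log2 change of -0.02 ± 0.05. Fat1 was at 527 and 440 CPM against 362 and 395 CPM in ethanol, and at 485 and 492 CPM against 411 and 324 CPM in dexamethasone. Its libraries with IPTG and empty vector were all below those without, with a log2 change of -0.36 ± 0.18 in ethanol (edgeR adjusted p = 0.226) and -0.41 ± 0.17 in dexamethasone (adjusted p = 0.136). With only the 4 libraries compared in the fit, the values for Fat1 passed, with an edgeR adjusted p of 0.0202 and 0.00846, and in dexamethasone Fat1 also passed with the replicate number as a block, with or without separate blocks for the treatments.

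**Figure D2:**
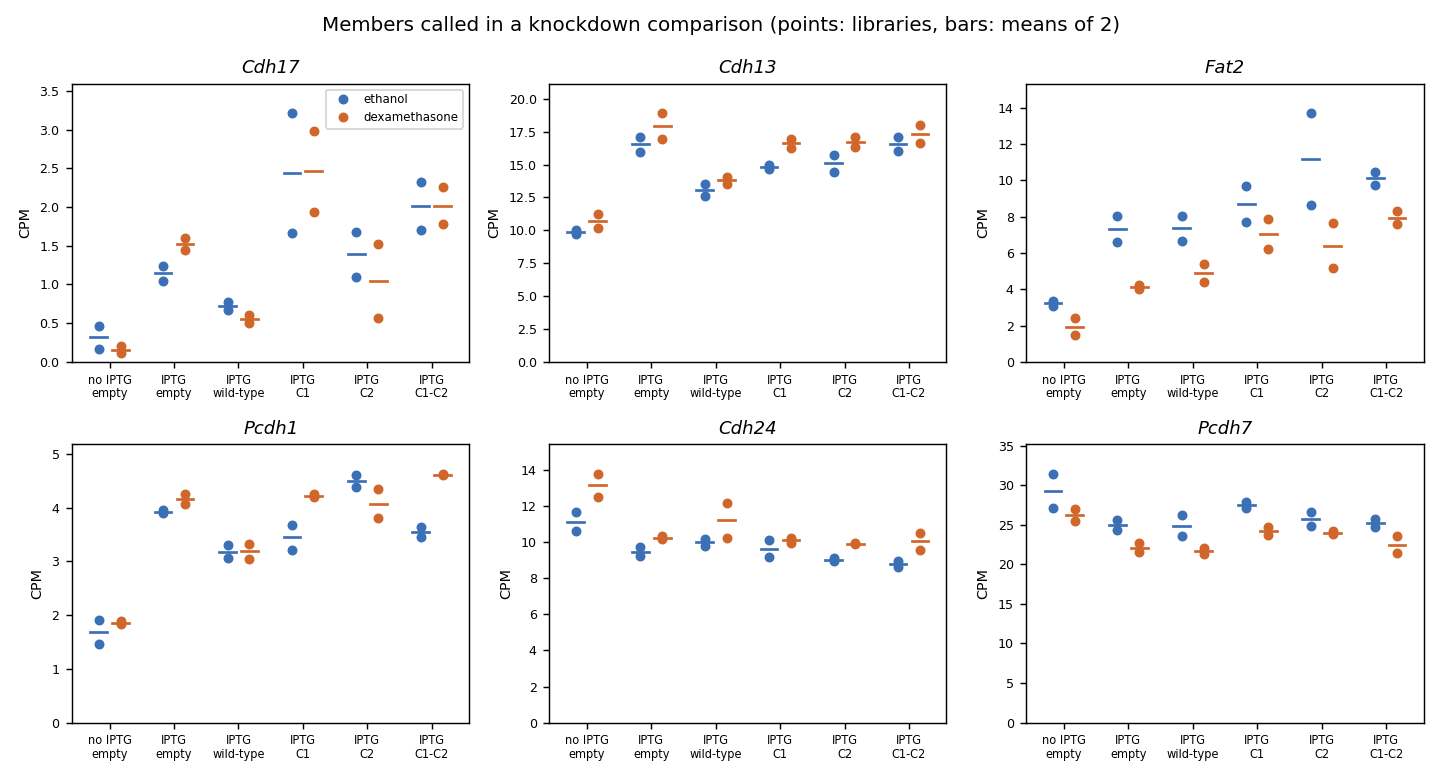
Level in CPM (vertical axis, from 0) of the 6 members Cdh17, Cdh13, Fat2, Pcdh1, Cdh24 and Pcdh7 in the 6 states of IPTG and construct (horizontal axis), with ethanol in blue and dexamethasone in orange; points are libraries and bars means of 2. In the Cdh17, Cdh13, Fat2 and Pcdh1 panels the no-IPTG libraries are the lowest, and for Cdh17 and Cdh13 the wild-type NIPBL libraries lie between them and the empty-vector libraries with IPTG.

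Empty-vector samples with the hairpin on also differed in marker sums. Without IPTG the epithelial list summed to 19.5 to 22.7 CPM and the mesenchymal list to 9181 to 9748 CPM, and in empty-vector cells with IPTG to 15.5 to 17.3 CPM and 8048 to 8665 CPM. The epithelial sums with wild-type NIPBL (20.9 to 23.4 CPM), C1 (17.9 to 23.3) and C1-C2 (17.8 to 20.8) overlapped those without IPTG, and those with C2 (14.6 to 18.9) did not. The mesenchymal sums of all libraries with IPTG (7500 to 9079 CPM) lay below those without. The milk protein list, of which Csn3 was the only tested gene, summed to 1.07 to 1.19 CPM without IPTG and to 2.44 to 3.00 CPM with it, and the blood list, of which Cd68 was the only tested gene, to 7.52 to 9.30 CPM and 9.45 to 11.4 CPM. The part of these shifts in the changes of the cadherins was not tested.

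The nearest tested protein-coding gene on each side was taken for the 7 members that passed in a knockdown comparison. Those named were chosen after their values were seen. Distances ran from 0.8 kb (Acin1 from Cdh24) to 5775.7 kb (Rell1 from Pcdh7), so not all of these genes are local. Of these 14 genes, 6 passed in ethanol, against 13.4% of all genes, and 5 in dexamethasone, against 16.9%. Rell1 was among those that passed in both treatments, and Stim2, 3596.9 kb from Pcdh7, among those in dexamethasone. Arap3, 186.9 kb from Pcdh1 on the side of the gamma protocadherins, had log2 changes of 2.49 and 2.50 with IPTG (edgeR adjusted p = 0.00154 in ethanol and 0.000205 in dexamethasone). Dele1, on the other side of Pcdh1, had changes of 0.02 and -0.01 (edgeR adjusted p = 0.885 and 0.923). Beside Cdh17, Pdp1 was lower where Cdh17 was higher, with log2 changes of -0.61 and -0.48 (edgeR adjusted p = 0.00241 in ethanol and 0.00518 in dexamethasone).

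The wild-type NIPBL construct was carried by cells with the hairpin on, and its comparisons were made over both treatments. The counts of Nipbl itself did not show the construct: they gave 55.1 to 70.4 CPM with wild-type NIPBL and 54.4 to 65.1 CPM with empty vector and IPTG, a log2 difference of 0.09 ± 0.07 (edgeR adjusted p = 0.448). Against empty vector with IPTG, 4 members passed against 8.65% of all genes tested (4.19% higher, 4.45% lower), and all 4 were lower with wild-type NIPBL: Cdh17, Cdh13, Pcdh17 and Pcdh1. Against cells without IPTG, 9 passed against 16.6% of all genes (7.23% higher, 9.36% lower): Cdh17, Cdh5, Cdh3, Cdh13, Fat2, Pcdh1 and Pcdh19 were higher and Pcdh7 and Cdh24 lower. The 2 comparisons share the wild-type libraries. The median log2 difference over the members was -0.05 against empty vector and 0.03 against no IPTG, beside -0.00 and 0.01 over all genes tested.

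For Cdh13 the wild-type libraries were at 13.5 and 12.6 CPM in ethanol and at 14.1 and 13.5 CPM in dexamethasone. All 4 lay above the 4 libraries without IPTG (9.72 to 11.2 CPM) and below the 4 empty-vector libraries with IPTG (16.0 to 18.9 CPM). The log2 difference was -0.36 ± 0.06 against empty vector (edgeR adjusted p = 0.000156) and 0.39 ± 0.06 against no IPTG (adjusted p = 4.3e-05), and both passed in all 18 alternatives.

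Cdh17 was ordered alike, with 0.769 and 0.668 CPM in ethanol and 0.605 and 0.499 CPM in dexamethasone. These 4 wild-type libraries also lay between the other states (at most 0.467 CPM without IPTG and at least 1.05 CPM with empty vector and IPTG). The log2 difference was -1.07 ± 0.32 against empty vector (edgeR adjusted p = 0.0430) and 1.51 ± 0.42 against no IPTG (adjusted p = 0.0187). The first call was lost without any 1 of the 8 libraries compared (edgeR adjusted p = 0.0878 to 0.145) and without C1-C2 ethanol replicate 2 (0.0516). The second was lost without replicate 1 of any of its 4 groups (edgeR adjusted p = 0.0625 to 0.0928).

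Pcdh1 was at 3.30 and 3.06 CPM in ethanol and at 3.32 and 3.05 CPM in dexamethasone with wild-type NIPBL, below all 4 empty-vector libraries with IPTG (3.90 to 4.26 CPM) and above all 4 without (1.46 to 1.91 CPM). The log2 difference was -0.35 ± 0.10 against empty vector (edgeR adjusted p = 0.0280) and 0.84 ± 0.11 against no IPTG (adjusted p = 4.44e-06). The first passed in 7 of its 18 alternatives, with an edgeR adjusted p of at most 0.0812 in the others, among them the fits without empty-vector replicate 1 or 2 in either treatment, without wild-type replicate 1 or 2 in ethanol and without wild-type replicate 2 in dexamethasone. Pcdh17 was lower than with empty vector, with a log2 difference of -0.24 ± 0.06 (edgeR adjusted p = 0.0215), and that call was lost without empty-vector ethanol replicate 2 (0.108), wild-type ethanol replicate 2 (0.101), empty-vector dexamethasone replicate 1 (0.0937) or wild-type dexamethasone replicate 1 (0.113).

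Fat2 did not pass against empty vector (log2 0.13 ± 0.17, edgeR adjusted p = 0.690). The wild-type libraries were at 8.06 and 6.68 CPM in ethanol, beside 6.58 and 8.01 CPM with empty vector and IPTG, and at 5.38 and 4.38 CPM in dexamethasone, beside 4 and 4.23 CPM. Fat2 was 2.39-fold higher than without IPTG (log2 1.26 ± 0.19, edgeR adjusted p = 0.000186), a call that passed in all 18 alternatives.

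P-cadherin Cdh3 had its highest mean, 6.06 CPM, with wild-type NIPBL. It was at 5.41 and 6.32 CPM in ethanol and at 5.99 and 6.52 CPM in dexamethasone, against 3.44 to 4.67 CPM without IPTG and 4.48 to 5.52 CPM with IPTG and empty vector. The C1 and C2 libraries were at 4.63 to 6.12 CPM and overlapped the wild-type ones, and C1 and C2 against wild-type NIPBL did not pass (edgeR adjusted p = 0.0958 and 0.314). The log2 difference from no IPTG was 0.56 ± 0.10 (1.48-fold, edgeR adjusted p = 0.000317, passed in all 18 alternatives), and from empty vector 0.30 ± 0.10 (adjusted p = 0.0635). Pcdh19, a protocadherin that pairs with N-cadherin, was at 63.8 to 73.8 CPM with wild-type NIPBL and at 49.7 to 61.2 CPM without IPTG, with no overlap, a log2 difference of 0.33 ± 0.08 (edgeR adjusted p = 0.0102) that passed in all 18 alternatives. Pcdh7 was lower than without IPTG, with a log2 difference of -0.25 ± 0.05 (edgeR adjusted p = 0.0014), again in all 18.

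Cdh24 was lower than without IPTG, with a log2 difference of -0.19 ± 0.06 (edgeR adjusted p = 0.0431), which passed in 9 of 18 alternatives. It was lost without no-IPTG replicate 1 in ethanol or dexamethasone (edgeR adjusted p = 0.168 and 0.172), wild-type replicate 1 or 2 in ethanol (0.0607 and 0.108) or wild-type replicate 2 in dexamethasone (0.182). VE-cadherin Cdh5 had 16 counts in the 4 wild-type libraries and 2 in the 4 libraries without IPTG, a ratio of 7.49 with a 95% exact binomial interval of 1.76 to 67.2 that covers counting error only. Its edgeR adjusted p was 0.0172, and 0.0582 to 0.102 without wild-type ethanol replicate 2, wild-type dexamethasone replicate 1, no-IPTG ethanol replicate 1 or either no-IPTG dexamethasone replicate.

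**Figure D3:**
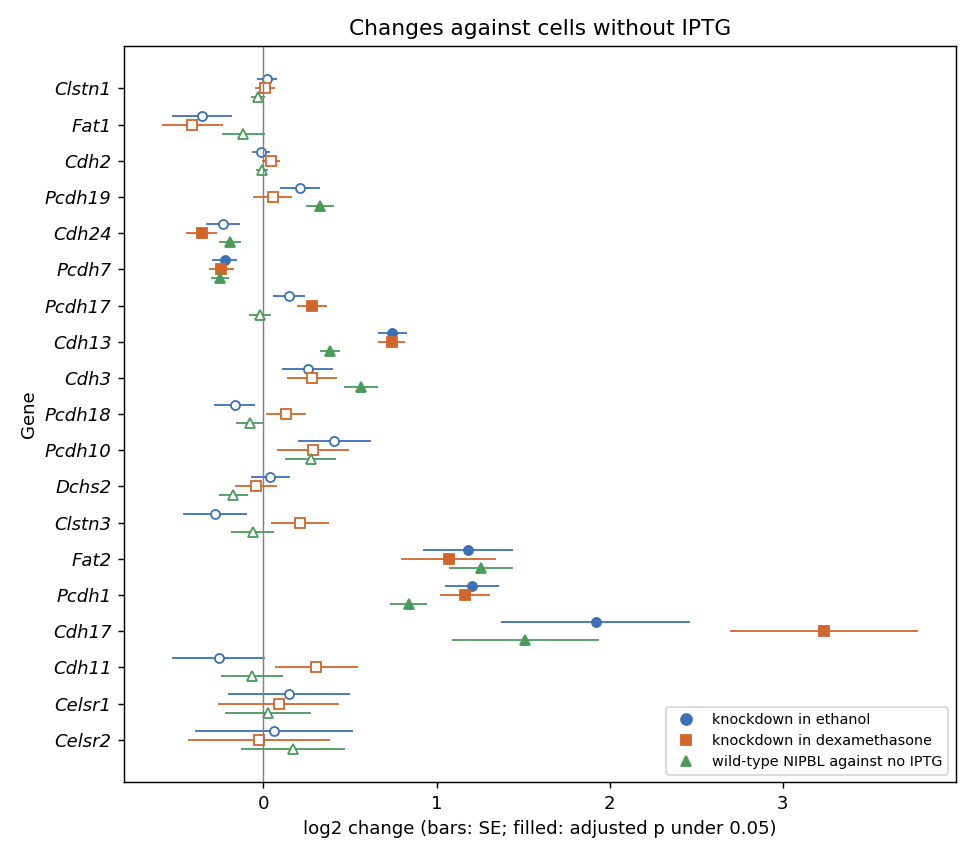
Log2 change (horizontal axis, bars SE) of 19 tested members against cells without IPTG: empty vector with IPTG in ethanol (blue circles) and dexamethasone (orange squares) and wild-type NIPBL over both treatments (green triangles), filled where the edgeR adjusted p is under 0.05. The 3 comparisons share libraries; Cdh17, Pcdh1, Fat2 and Cdh13 lie to the right of 0 in all of them, while Clstn1 and Cdh2 lie near 0.

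The mutants were set against empty vector and against wild-type NIPBL, with IPTG throughout and over both treatments. Against empty vector, 1 member passed for C1 against 1.43% of all genes tested (0.685% higher, 0.750% lower), 2 for C2 against 3.87% (2.11% higher, 1.76% lower), and 0 for C1-C2 against 0.437%. For C1-C2, edgeR gave 6 members an unadjusted p under 0.05, and DESeq2 called 1. Against wild-type NIPBL, 4 members passed for each mutant, against 9.66% of all genes for C1 (5.24% higher, 4.41% lower), 12.9% for C2 (6.87% higher, 5.98% lower) and 4.86% for C1-C2 (2.67% higher, 2.19% lower). Nipbl was itself lower with C2 than with wild-type NIPBL, with a log2 difference of -0.22 ± 0.07 (edgeR adjusted p = 0.0438), and its part in the C2 differences was not tested.

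Clstn3, a calsyntenin that acts at synapses and in thermogenic fat, at chr6:124430759-124464794, was the 1 member called for C1 against empty vector. The C1 libraries were at 3.14 and 3.24 CPM in ethanol and at 3.80 and 4.10 CPM in dexamethasone. Each of the other 20 libraries was lower, at 1.72 to 2.71 CPM. The log2 difference was 0.66 ± 0.12 against empty vector (1.58-fold, edgeR adjusted p = 0.00224) and 0.69 ± 0.12 against wild-type NIPBL (1.62-fold, adjusted p = 0.00037), and both passed in all 18 alternatives. For C2 and C1-C2 against empty vector Clstn3 did not pass. The milk protein list moved with C1 too, at 0.422 to 0.741 CPM in the C1 libraries and 1.07 to 3.28 CPM in the others, and its part in the Clstn3 difference was not tested.

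Cdh17 was at 1.66 and 3.21 CPM in C1 cells in ethanol and at 1.94 and 2.98 CPM in dexamethasone. The C1-C2 libraries were at 1.71 and 2.32 CPM in ethanol and at 1.78 and 2.26 CPM in dexamethasone, and the C2 libraries were at 0.569 to 1.68 CPM. All C1 and C1-C2 libraries were above all wild-type ones (at most 0.769 CPM), and the lowest C2 library was not. The log2 difference from wild-type NIPBL was 1.95 ± 0.30 for C1 (3.86-fold, edgeR adjusted p = 0.000266), 1.68 ± 0.30 for C1-C2 (3.20-fold, adjusted p = 0.00238) and 0.91 ± 0.32 for C2 (adjusted p = 0.0643), which passed in 5 of 18 alternatives. The C1 and C1-C2 calls passed in every alternative, 18 and 17 of them.

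Cdh13 was higher than with wild-type NIPBL in all 3 mutants, by 0.23 ± 0.06 on the log2 scale for C1 (edgeR adjusted p = 0.00975), 0.24 ± 0.06 for C2 (0.0056) and 0.33 ± 0.06 for C1-C2 (0.000537), and these calls passed in every alternative. The 12 mutant libraries were at 14.5 to 18 CPM and the 4 wild-type libraries at 12.6 to 14.1 CPM, without overlap. Pcdh1 was higher than with wild-type NIPBL by 0.43 ± 0.10 for C2 (edgeR adjusted p = 0.00515, in all 18 alternatives) and by 0.35 ± 0.10 for C1-C2 (adjusted p = 0.0383), a call lost in 12 of 17 alternatives and without any 1 of the 8 libraries compared (0.0523 to 0.139).

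Of the other differences from wild-type NIPBL that passed, Cdh2 was higher with C1 by 0.13 ± 0.04 on the log2 scale (edgeR adjusted p = 0.0179), with C1 libraries at 166 to 174 CPM and wild-type libraries at 147 to 166 CPM. Pcdh17 was higher with C2 by 0.25 ± 0.06 (adjusted p = 0.0105) and Pcdh18 with C2 by 0.26 ± 0.08 (adjusted p = 0.0345). Cdh3 was lower with C1-C2, with a log2 difference of -0.35 ± 0.10 (edgeR adjusted p = 0.0423). Each of these 4 calls was lost without some single libraries. The Cdh2 call was lost without wild-type ethanol replicate 2 (edgeR adjusted p = 0.119), C1 ethanol replicate 2 (0.0609) or C1 dexamethasone replicate 1 (0.0881). The Pcdh17 call was lost without C2 ethanol replicate 1 (edgeR adjusted p = 0.0693), wild-type ethanol replicate 2 (0.0685) or wild-type dexamethasone replicate 1 (0.0569). The Pcdh18 call was lost without replicate 1 of wild-type NIPBL or replicate 2 of C2 in either treatment (edgeR adjusted p = 0.139 to 0.162). The Cdh3 call was lost without any of its libraries except wild-type ethanol replicate 1 (edgeR adjusted p = 0.0537 to 0.217).

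With C2, Fat2 was at 8.64 and 13.7 CPM in ethanol and at 5.17 and 7.63 CPM in dexamethasone. That is above the empty-vector libraries of the same treatment, by 0.62 ± 0.17 on the log2 scale (edgeR adjusted p = 0.0483). The Fat2 call was lost without any 1 of the 4 empty-vector libraries, replicate 2 of C2 in either treatment or C1-C2 ethanol replicate 2 (edgeR adjusted p = 0.0658 to 0.214). Dchs2 was lower with C2 than with empty vector, with a log2 difference of -0.39 ± 0.08 (edgeR adjusted p = 0.0108), and without C2 replicate 2 in ethanol or dexamethasone this gave 0.0846 and 0.0831. For C1-C2 against empty vector, Fat2 (log2 0.71 ± 0.17, edgeR adjusted p = 0.0818) did not pass, although it passed in 5 of 17 alternatives. Cdh5 had 44 counts in the C1-C2 libraries and 8 in the empty-vector ones and did not pass either (edgeR adjusted p = 0.0618). The filter on low counts kept Cdh5 only through C1-C2 libraries, the only ones above 0.128 CPM. Its ratio of 5.21 (95% exact binomial interval 2.43 to 12.8), its test and its passes in 4 of 16 alternatives rest on those same values. They are no support for a Cdh5 difference.

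**Figure D4:**
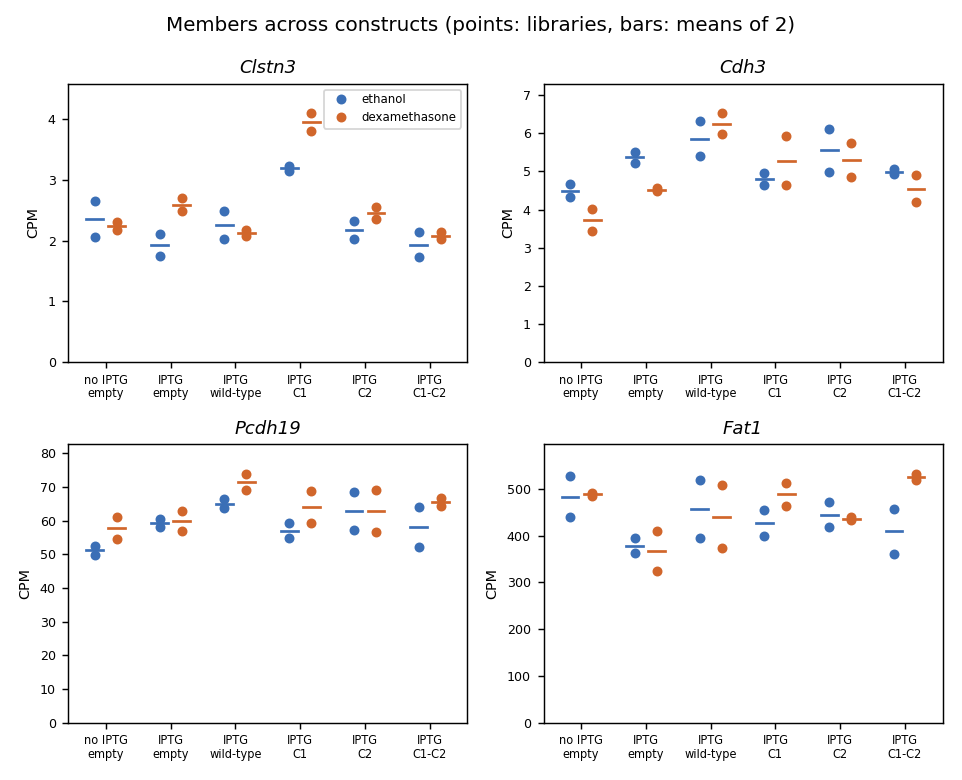
Level in CPM (vertical axis, from 0) of Clstn3, Cdh3, Pcdh19 and Fat1 in the 6 states of IPTG and construct (horizontal axis), with ethanol in blue and dexamethasone in orange; points are libraries and bars means of 2. The 4 C1 libraries of Clstn3 lie above the other 20, and the wild-type NIPBL libraries of Cdh3 and Pcdh19 lie above those without IPTG.

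Dexamethasone was given for 2 hours in each of the 6 states. Without IPTG, 3 members passed against 38.0% of all genes tested (19.8% higher, 18.2% lower). In empty-vector cells with IPTG 3 passed against 32.5% (17.1% higher, 15.4% lower), and over the 5 states with IPTG 10 passed against 59.7% (31.3% higher, 28.4% lower). These are 14.3%, 14.3% and 47.6% of the tested members, shares below those of all genes in this fit. Dchs2 was lower and Clstn1 higher in all 3 comparisons. Over the 5 states with IPTG, Clstn1, Clstn3, Cdh11, Cdh13, Cdh24 and Pcdh17 were higher and Dchs2, Fat2, Pcdh10 and Pcdh7 lower. The test of the difference between the responses with and without IPTG is the one given above, with 0 members passing. All ethanol libraries were shallower than all dexamethasone libraries, and the dependence of counts on length and GC content differed between them, so treatment cannot be told apart from library depth and composition by design alone. For the dexamethasone calls of members, values with the length and GC trend removed are given where they ended a call or turned a direction. In other comparisons the removal ended the Pcdh7 call for the knockdown in ethanol and the Fat2 call for C2 against empty vector. It also ended the Pcdh1 calls of wild-type NIPBL against empty vector and of C1-C2 against wild-type NIPBL. The Cdh24 call of wild-type NIPBL against no IPTG was lost too. For these calls the edgeR adjusted p was then 0.0525 to 0.0714. The genes of the pathway lists below were not followed with the trend removed. With it removed, 22.5%, 20.2% and 49% of all genes passed in the 3 comparisons. The removal also added calls: Cdh3 without IPTG and over the 5 states, Cdh13 and Pcdh17 in empty-vector cells with IPTG, and Pcdh19 over the 5 states.

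Dchs2, a ligand of the Fat proteins, at chr3:83127948-83357209, fell with dexamethasone in each of the 6 states. In ethanol its 12 libraries were at 7.98 to 11.6 CPM with a median of 10.4 CPM, and in dexamethasone at 4.06 to 6.78 CPM with a median of 5.42 CPM. The 2 treatments did not overlap in any state. It fell by 0.81 (SE 0.12) on the log2 scale without IPTG (1.75-fold, edgeR adjusted p = 5.15e-06), by 0.89 (SE 0.12) in empty-vector cells with IPTG (1.86-fold, 1.81e-06) and by 0.94 (SE 0.05) over the 5 states with IPTG (1.92-fold, 7.02e-14). All 3 calls passed in every alternative, the removal of the length and GC trend included. The other Dachsous gene, Dchs1, had 58 counts in all libraries and was not tested.

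Fat2 was lower in dexamethasone in each state by its mean, from 7.30 ± 1.01 (SD, n = 2) to 4.12 ± 0.17 CPM in empty-vector cells with IPTG. Over the 5 states with IPTG it fell by 0.58 (SE 0.10) on the log2 scale (1.49-fold, edgeR adjusted p = 0.000128), a call that passed in all 29 alternatives. In empty-vector cells with IPTG alone it fell by 0.82 (SE 0.25) (edgeR adjusted p = 0.0163), lost without ethanol replicate 2 (0.108), dexamethasone replicate 1 (0.0929) or dexamethasone replicate 2 (0.0624). Without IPTG the log2 change was -0.71 ± 0.29 (edgeR adjusted p = 0.0650).

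The type II cadherin Cdh11, known from osteoblasts and mesenchymal cells, was low. With IPTG it was at 0.661 to 1.02 CPM in the 10 ethanol libraries and at 1.09 to 1.48 CPM in the 10 dexamethasone libraries, with no overlap. The rise over the 5 states was 0.56 ± 0.11 on the log2 scale (1.47-fold, edgeR adjusted p = 0.000159) and passed in all 29 alternatives. Without IPTG Cdh11 was at 1.19 and 0.992 CPM in ethanol and at 0.890 and 1.23 CPM in dexamethasone.

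Pcdh10, a protocadherin of neurons that is often silenced in tumours, fell by 0.27 (SE 0.09) on the log2 scale with dexamethasone over the 5 states with IPTG (edgeR adjusted p = 0.0216), with 13 to 19.2 CPM in ethanol and 10.4 to 16.6 CPM in dexamethasone. These ranges overlap, and with the length and GC trend removed the edgeR adjusted p was 0.107. Pcdh7 fell by 0.16 (SE 0.03) (adjusted p = 0.000127), Pcdh17 rose by 0.15 ± 0.04 (0.00261) and Cdh13 rose by 0.11 ± 0.03 (0.00686), and these 3 calls passed in all 29 alternatives.

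The Clstn1 libraries were at 201 to 231 CPM in ethanol and at 240 to 258 CPM in dexamethasone, without overlap. Its log2 change was 0.25 ± 0.06 without IPTG (edgeR adjusted p = 0.00097), 0.24 ± 0.06 in empty-vector cells with IPTG (0.00178) and 0.21 ± 0.03 over the 5 states (9.46e-08). Its transcript is richer in G and C than those of 90.0% of the genes, and with the length and GC trend removed these changes were -0.01, 0.05 and 0.04 (edgeR adjusted p = 0.959, 0.563 and 0.133). Without empty-vector ethanol replicate 1 the change in empty-vector cells was 0.17 (adjusted p = 0.0776). Cdh24, at the 97.8th percentile of GC content, changed by 0.24 ± 0.09 without IPTG (edgeR adjusted p = 0.0433) and 0.13 ± 0.04 over the 5 states (0.00742), and by -0.04 and -0.01 with the trend removed (0.795 and 0.912). The call without IPTG was also lost without no-IPTG replicate 1 or 2 in ethanol (edgeR adjusted p = 0.0510 and 0.271), no-IPTG replicate 1 in dexamethasone (0.276) or C1-C2 ethanol replicate 2 (0.0523). The change of Clstn3 over the 5 states, 0.19 ± 0.08 (edgeR adjusted p = 0.0429), was lost in 19 of 29 alternatives, and with the length and GC trend removed it was 0.02 (adjusted p = 0.878). Among the 19 were the fits without 1 of the 4 C1 libraries other than dexamethasone replicate 1, 1 of the 4 C1-C2 libraries other than ethanol replicate 1, 1 of the 4 wild-type libraries other than ethanol replicate 2, empty-vector ethanol replicate 2 or dexamethasone replicate 1, or C2 ethanol replicate 2 or dexamethasone replicate 1 (edgeR adjusted p = 0.0520 to 0.139).

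**Figure D5:**
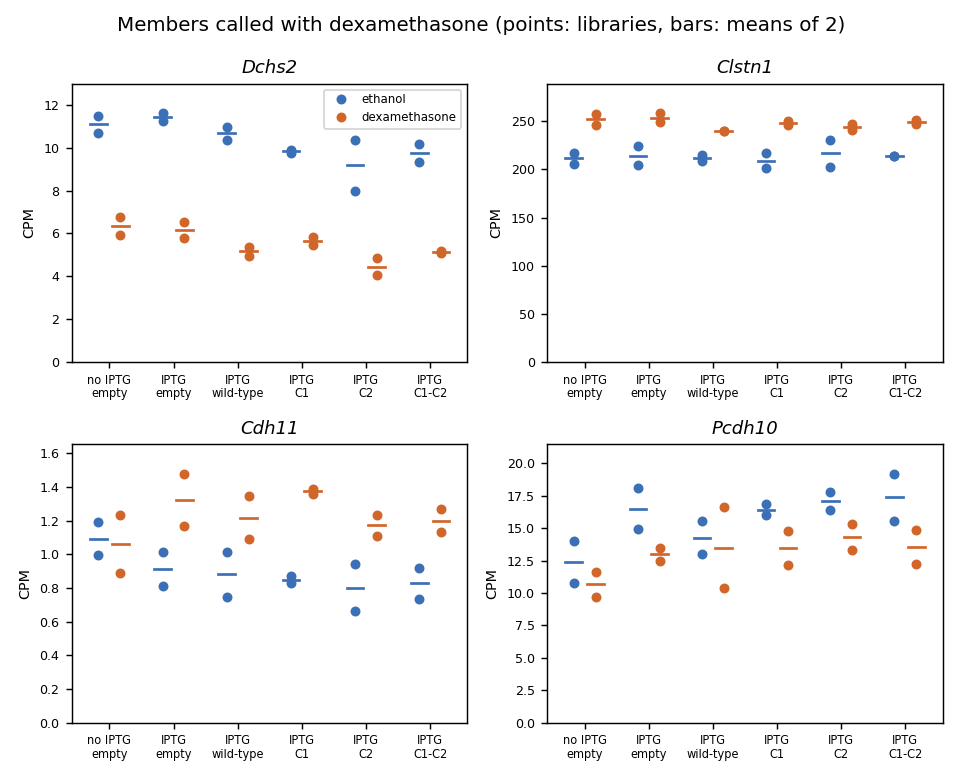
Level in CPM (vertical axis, from 0) of Dchs2, Clstn1, Cdh11 and Pcdh10 in the 6 states of IPTG and construct (horizontal axis), with ethanol in blue and dexamethasone in orange; points are libraries and bars means of 2. The Dchs2 dexamethasone libraries lie at 4.06 to 6.78 CPM, below all ethanol ones, while the step of Clstn1 from 201 to 231 CPM up to 240 to 258 CPM went to -0.01, 0.05 and 0.04 on the log2 scale with the length and GC trend removed.

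The proteins on the inner side of the junction were followed with a list of 15 catenins and desmosomal plaque genes, 11 of them tested. With the hairpin on, 2 were higher and 2 lower in ethanol, against 13.4% of all genes called, and 3 higher and 3 lower in dexamethasone, against 16.9%. Plakophilin 3 (Pkp3), a desmosomal plaque protein, rose from 0.817 and 1.05 CPM to 2.73 and 2.13 CPM in ethanol (2.64-fold, edgeR adjusted p = 0.0011). Plakophilin 1 (Pkp1) was lower with IPTG, at 63.2 and 70.0 CPM against 81.5 and 88.1 CPM in ethanol and at 128 and 122 CPM against 204 and 228 CPM in dexamethasone (1.73-fold, edgeR adjusted p = 1.18e-08). Dexamethasone raised Pkp1 2.55-fold without IPTG (edgeR adjusted p = 5.96e-14). Against wild-type NIPBL, Pkp3 was higher and Pkp1 lower with each of the 3 mutants, by 0.57, 0.85 and 0.90 and by -0.19, -0.19 and -0.19 on the log2 scale for C1, C2 and C1-C2 (edgeR adjusted p of at most 0.0301).

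A list of 16 regulators, which holds transcription factors that act on cadherin genes and the epithelial splicing factors Esrp1 and Esrp2, had 10 tested genes. With the hairpin on, 3 passed in ethanol, all lower (Twist2, Klf4 and Zeb1), against 13.4% of all genes, and 2 in dexamethasone, both lower (Twist2 and Klf4), against 16.9%. Without IPTG 6 were lower in dexamethasone and none higher, against 38.0% of all genes in both directions, among them the E-box repressors Snai2, with a log2 change of -0.87 (edgeR adjusted p = 0.000102), and Zeb2, with -0.52 (1.01e-07). Their relative Snai1 did not pass, at 8.99 and 12.3 CPM in ethanol and 10.2 and 13.6 CPM in dexamethasone. Of 18 partners of Fat, Dachsous and Celsr, 14 were tested, and with the hairpin on 2 passed in each treatment, against the same 13.4% and 16.9%, both lower: Dlg5 and the planar polarity gene Prickle1. With dexamethasone without IPTG, 2 partners were higher and 5 lower, against 38.0% of all genes, among them the Hippo kinase gene Lats2, with a log2 change of -0.41 (edgeR adjusted p = 9.86e-05), and the co-activator gene Wwtr1, with -0.34 (0.0004). Of 10 genes of cadherin shedding and turnover, 9 were tested. With the hairpin on, Psen2 alone passed, higher, in dexamethasone, against 16.9% of all genes. With dexamethasone without IPTG 2 were higher (Src and Adam15) and 2 lower (Rab11a and the sheddase gene Adam10), against 38.0%; these genes were named after their values were seen.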

How the data were processed

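The table holds raw counts per gene name in 24 libraries, as deposited by the authors. Per the submitters' processing notes, the tools were bcl2fastq 2.20, cutadapt 1.18, STAR 2.7.0f, featureCounts and Subread 2.0.3, with mm10. The annotation release, the strand setting and the treatment of reads with several alignments are not given in the sources used here. GENCODE vM21 supplied positions, exon length and GC content, and RefSeq the promoter windows.

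The test was edgeR's (4.0.16, R 4.3.3) quasi-likelihood F test with robust dispersion and TMM scaling, fitted to all 24 libraries with 1 coefficient per group, leaving 12 residual degrees of freedom. Filtering by expression retained 16934 genes and dropped 38407. P-values were adjusted by Benjamini and Hochberg over all tested genes in each of 14 comparisons, with calls at an adjusted p under 0.05. The median biological coefficient of variation was 6.43%. Depth was 32.5 to 72.9 M counts per library. Correlations of log2 CPM within groups were 0.996 to 0.998. The 2 libraries of a group differed by more than counting error, with a chi-square per degree of freedom of 5.67 to 22, and no 2 libraries were merged. Replicate 2 of C1-C2 in ethanol was grouped by its title.

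Members that passed in at least 1 comparison with a group mean of at least 0.2 CPM, the 8 of highest level per kb and up to 4 called genes of each pathway list were named. The members and lists were chosen with earlier results of these data known. Alternatives were RLE factors, other filters, DESeq2 1.42.0, a replicate block, only the libraries compared, length and GC trends removed and each library left out in turn. Another left out the genes Gm26917 and Gm42418. Together they held 12.0 to 13.3% of the counts of a library in ethanol and 12.7 to 16.1% in dexamethasone. In simulated data of 16557 genes for the knockdown in ethanol, the test recovered 82% of the 2-fold and 48% of the 1.5-fold differences, with 6.35% false calls. The simulation changed 200 genes and drew libraries independently of each other. In the data 13.4% of genes were called, and deviations of same-numbered libraries correlated at up to 0.44, so those rates need not hold here.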

Additional observations from a re-analysis of the deposited data

How the results depend on the processing

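Of 56 calls of a member in a comparison, 28 passed in every alternative and 28 were lost in at least 1. With the length and GC trend removed, 3 dexamethasone calls turned direction: Clstn1 without IPTG to a log2 change of -0.0062, and Cdh24 to -0.0428 without IPTG and -0.0065 over the 5 states with IPTG. Low-count members (Cdh5, Celsr3) are limited by depth.

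With 1 library left out at a time, the number of members called was 2 to 4 for the knockdown in ethanol (5 with all libraries), 3 to 7 in dexamethasone (7), 2 to 4 for dexamethasone without IPTG (3), 2 to 3 in empty vector (3), 9 to 11 over 5 states (10), 1 to 3 for wild-type NIPBL against empty vector (4) and 6 to 9 against no IPTG (9). It was 1 to 1 for C1 against empty vector (1), 0 to 2 for C2 (2), 0 to 0 for C1-C2 (0), and 3 to 5, 2 to 6 and 2 to 3 for C1, C2 and C1-C2 against wild-type NIPBL (4 each).

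With the replicate number as a block, dexamethasone without IPTG gave 5 members, and C1 and C1-C2 against empty vector gave 2 each, as they did with a block within treatment. The main fit did not pair libraries by replicate number. Over 66 pairs of groups, deviations of same-numbered libraries correlated at -0.28 to 0.44, with 34 over 0.1 and 3 under -0.1. More thus lay over 0.1 than under -0.1, and the main fit leaves out any effect that same-numbered libraries share. With a replicate block, Pcdh10 also passed in both knockdown comparisons, Pcdh19 in the ethanol one and Fat1 in the dexamethasone one. C1 against empty vector gave 3 members without a filter, 2 with DESeq2 and 3 with only the libraries compared. C2 gave 1 with the length and GC trend removed and 0 with only the libraries compared. C1-C2 gave 3, 1, 1 and 4 without a filter, with DESeq2, with the trend removed and with only the libraries compared. C2 against wild-type NIPBL gave 2 with only the libraries compared. The cause of these shifts was not tested.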
